A study of Sparus aurata with 9 samples.

Results

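The gene models of the sarcoplasmic reticulum and the triad were followed in the white muscle of gilthead seabream (Sparus aurata). A gene model was a member when its description named a ryanodine receptor, a calsequestrin, a sarcoplasmic protein or pump, triadin, a junctophilin, sarcalumenin or an L-type calcium channel subunit, or began with calmodulin. Parvalbumins were not included. This wording chose 196 of the 61849 gene models. Fragments were counted for 44 of the 196, in 1 fish or more, and the other 152 stayed at 0.

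RNAseq was performed on white skeletal muscle of 9 farmed fish, 3 per group. The controls spent the 8 months of the trial at minimal flow, and the other groups swam over the same period at 1 or at 2 body lengths per second (BL/s). Each library came from a different fish, but each group was housed in 1 tank, so the flow and the tank cannot be told apart. No genetic modification of the fish was stated, and their ages were not among the labels. According to the study, the fish chosen for RNAseq were alike in size and normal in morphology.

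In fast muscle, an action potential that runs into the T-tubules moves the voltage sensor, an L-type calcium channel. Ryanodine receptors in the facing membrane of the sarcoplasmic reticulum then open and release the calcium that starts contraction. Junctophilins hold the membranes together at the triad, triadin anchors calsequestrin to the release channel, and calsequestrin, sarcalumenin and the histidine-rich protein bind calcium in the lumen. SERCA pumps return the calcium to the lumen, and calmodulin senses it in the cytosol. White muscle of fish consists of fast fibres, which rely on rapid cycles of release and uptake.

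Total counts per fish ranged from 3660245 to 5267310 fragments. Fast myosin heavy chains were at 433700 to 713000 normalized counts and parvalbumins, also of fast fibres, were at 82700 to 192200. The gene model described as myoglobin, a marker of red muscle, had no count in any fish. It is on a list of 28 slow and red muscle markers, of which 12 had counts. Their summed level was 509 to 1284 normalized counts per fish. Fish 3 of the 1 BL/s group lay apart on the first principal component, which held 30.8% of the variance, with a score of 53.62 against scores from -15.04 to -0.41. Fish 2 at 2 BL/s had 517.2 normalized counts of slow troponins, against 4.70 to 56.8 in the other 8 fish.

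Counts fell on few members. The members together held 459764 fragments over the 9 fish, which was 1.16% of all fragments, and between 0.948% and 1.28% in single fish. Calsequestrins held 54.4% of the members' fragments, ryanodine receptors 18.2%, sarcalumenin and the other luminal proteins 12.3%, L-type channel subunits 6.98%, triadin and junctophilins 6.21%, calmodulins 1.56%, SERCA pumps 0.169% and the other proteins with calmodulin in their names 0.086%. These shares grow with the length of a transcript as well as with its level, and transcript lengths were not used here, so levels were not ranked between gene models. In several roles nearly all fragments came from 1 gene model. It was Sa_11698.7.1 (calsequestrin-1-like) with 99.96% of the calsequestrin fragments, Sa_5691.7.1 (ryanodine receptor 3 isoform X2) with 99.86% of the ryanodine receptor fragments, Sa_29407.4.1 (alpha-1S) with 95.5% of the L-type fragments and Sa_36578.1.1 (junctophilin-2) with 90.2% of the fragments of triadin and junctophilins.

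Whether a member had a count went with the form of its identifier. Identifiers end in a number that separates the gene models of a common stem, such as the isoforms X1, X2 and X4 of triadin. Among members that were alone on their stem, 31 of 45 (68.9%) had a count, and they held 459493 fragments. Among members that shared a stem, 13 of 151 (8.61%) had a count, and they held 271 fragments. The same held over all gene models, with 11159 of 18463 (60.4%) and 3306 of 43386 (7.62%). All 18 gene models of ryanodine receptor 1, all 15 of the alpha-1C subunit and all 5 of triadin shared a stem. A listed 0, or a low count, of these families therefore cannot be read as a lack of expression, and isoform use could be described only for gene models that stood alone.

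**Figure D1:**
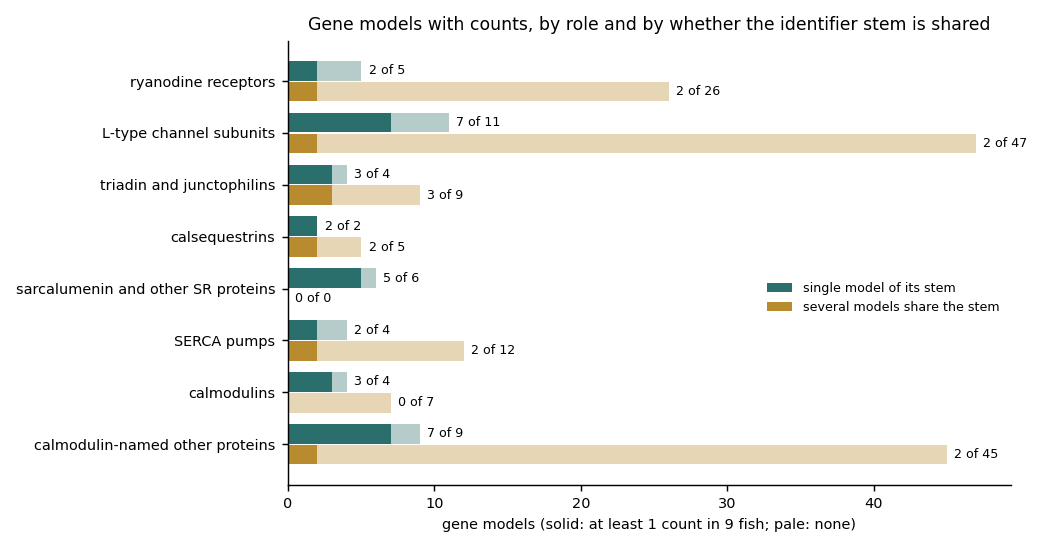
Number of member gene models (x axis) in each role (y axis), split by whether the identifier stem holds 1 gene model or several; the solid part of a bar is the gene models with a count in any of the 9 fish. In the ryanodine receptors 2 of 5 single models and 2 of 26 models with a shared stem had counts, and in the L-type subunits 7 of 11 and 2 of 47.

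The groups were compared by edgeR's quasi-likelihood test on all gene models that passed its filter on low counts, and a call was an unadjusted p below 0.05, the threshold of the study. At 1 BL/s vs. controls, 1 of 17 members tested passed, ryanodine receptor 3, which was lower, while 4.02% of all 3902 gene models tested passed, 2.05% on the lower and 1.97% on the higher side. In the fish at 2 BL/s vs. controls, 1 of 17 members passed, the histidine-rich calcium-binding protein, which was higher, while 4.46% of all 3947 gene models passed, 1.75% on the higher and 2.71% on the lower side. Between 2 and 1 BL/s, 0 of 19 members passed by edgeR at an unadjusted p below 0.05 and 0 by DESeq2, against a background of 4.24% of 3963 gene models (1.97% higher, 2.27% lower). Across the 3 groups, 1 of 19 members passed, against 3.91% of 4241 gene models. It was calsequestrin-2-like, which passed the filter only through the counts of swimming fish. Each of these shares of members rests on at most 1 gene model and lay near its background. After Benjamini-Hochberg adjustment over all gene models, 0 members passed in any of these tests by edgeR or by DESeq2, and by edgeR 0.0% of all gene models did.

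The median log2 fold change of the members tested was -0.06 at 1 BL/s, -0.08 at 2 BL/s and 0.11 between 2 and 1 BL/s. Over all gene models tested the medians were -0.0116, -0.0004 and 0.0288. The comparisons with controls share the same 3 control fish. Of the 44 members with a count, 27 did not pass the filter in the comparisons with controls and 25 in the others, and their mean levels were between 0.0984 and 9.22 normalized counts. A normalized count is a count divided by the library size and edgeR's TMM factor, scaled over the 9 fish. It is not divided by transcript length.

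**Figure D2:**
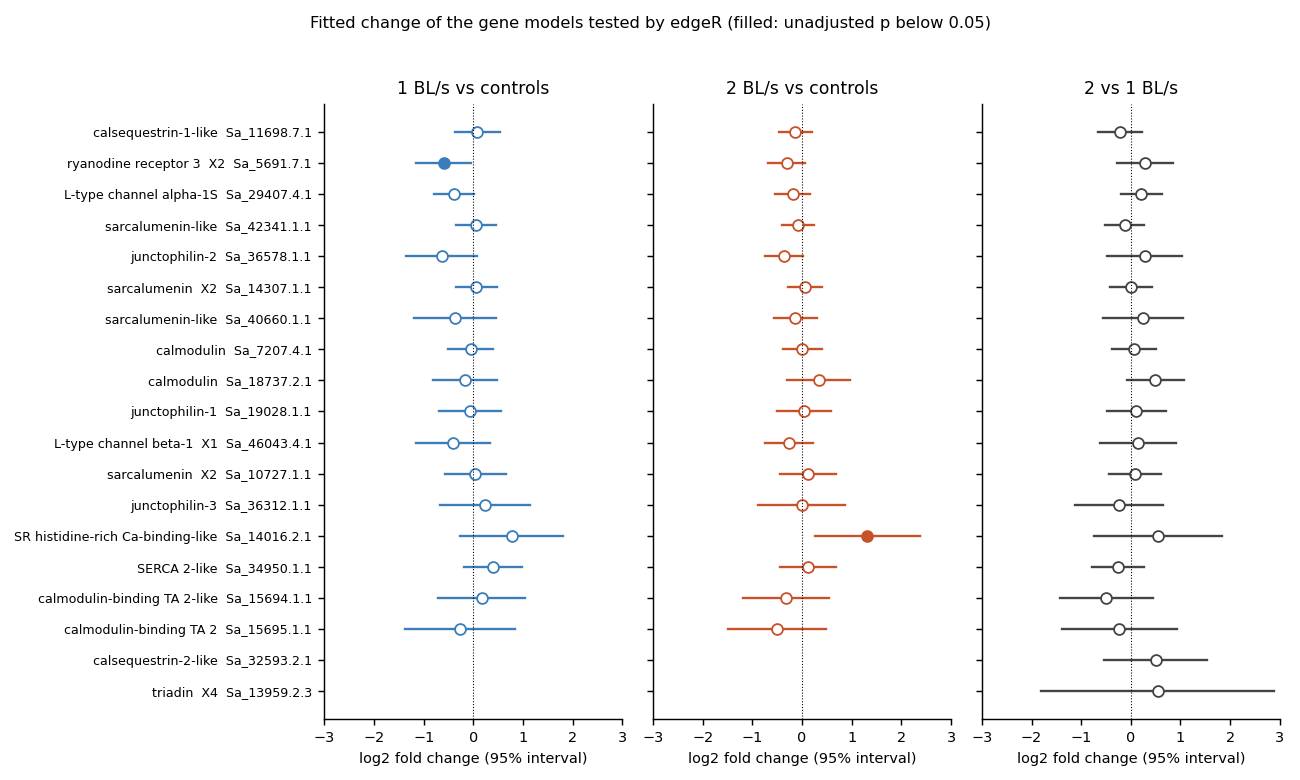
Fitted log2 fold change (x axis) of each member tested (y axis) in the 3 pairwise comparisons of 3 against 3 fish; lines are 95% intervals and filled points have an unadjusted p below 0.05 by edgeR. The filled points are ryanodine receptor 3 at -0.60 for 1 BL/s vs. controls and the histidine-rich protein at 1.31 for 2 BL/s vs. controls.

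Ryanodine receptor 3 was lower at 1 BL/s than in the controls. The gene model Sa_5691.7.1 encodes a release channel of the sarcoplasmic reticulum. In fish and other non-mammalian vertebrates it is found in skeletal muscle beside ryanodine receptor 1. Its normalized counts were 9505, 12519 and 11287 in control fish, 8770, 8337 and 4993 in fish at 1 BL/s, and 10568, 8133 and 8138 in fish at 2 BL/s. Every fish at 1 BL/s was below every control, with fish 3 far below its tank mates, and the fish at 2 BL/s overlapped with the controls. The group means were 11104 ± 1515, 7366 ± 2067 and 8946 ± 1405 normalized counts (SD, n = 3).

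The log2 fold change of ryanodine receptor 3 at 1 BL/s vs. controls was -0.60 (SE 0.25, 95% interval -1.15 to -0.04, edgeR unadjusted p = 0.0382, adjusted p = 0.966). Without fish 3 at 1 BL/s it was -0.38 and still passed (edgeR unadjusted p = 0.0384). It no longer passed without control fish 2 (edgeR -0.51, unadjusted p = 0.111), without control fish 3 (edgeR -0.58, unadjusted p = 0.0916), by DESeq2 (unadjusted p = 0.0579) or under the filter of 50 counts (edgeR unadjusted p = 0.0635). An exact two-sided permutation test of the 3 against 3 fish gave p = 0.1, the smallest that its 20 arrangements allow. In the group at 2 BL/s the log2 fold change was -0.31 (SE 0.17, edgeR unadjusted p = 0.0963), and between 2 and 1 BL/s it was 0.29 (SE 0.25, edgeR unadjusted p = 0.273). In muscle of mixed cells, fewer fibres of a type and less RNA per fibre cannot be told apart, which holds for every level given here.

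The other ryanodine receptors had few counts. Ryanodine receptor 1, the main release channel of fast skeletal muscle in mammals, had 112 fragments over the 9 fish, from 2 of its 18 gene models (Sa_20770.1.3 and Sa_9552.3.5). Their summed counts were 12, 14 and 16 in control fish, 27, 9 and 0 in fish at 1 BL/s, and 17, 10 and 7 in fish at 2 BL/s. The groups overlapped, and the 0 of fish 3 at 1 BL/s allows up to 3 counts. The ratio of the summed counts to the controls was 0.891 at 1 BL/s (95% counting interval 0.555 to 1.43) and 0.782 at 2 BL/s (0.483 to 1.26). Without fish 3 at 1 BL/s the first ratio was 1.22 (0.756 to 1.94). Leaving a fish out of such ratios was chosen after seeing the data. Counting intervals cover counting error only and not the spread between fish. Ryanodine receptor 2, the cardiac channel, had no count in its 9 gene models, of which 6 shared a stem. The ryanodine receptor 3-like model Sa_12025.1.1 had 2 fragments, both in fish 2 at 2 BL/s.

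The voltage sensor subunit alpha-1S (Sa_29407.4.1), the pore-forming subunit of the skeletal muscle L-type channel, was measured by a single gene model. Its normalized counts were 3869, 3465 and 4157 in control fish, 3033, 2973 and 2754 in fish at 1 BL/s, and 3459, 2925 and 3640 in fish at 2 BL/s. The fish at 1 BL/s lay below all controls and close to each other, and those at 2 BL/s overlapped with both groups. The log2 fold change at 1 BL/s vs. controls was -0.40 (SE 0.18, 95% interval -0.80 to 0.0039) and missed the threshold (edgeR unadjusted p = 0.0518). It passed narrowly without fish 3 at 1 BL/s (edgeR -0.35, unadjusted p = 0.0495), under the filter of 50 counts (edgeR unadjusted p = 0.0275), in the fit of all 9 fish (edgeR unadjusted p = 0.0373) and with the 10 most abundant gene models left out of the library sizes (edgeR unadjusted p = 0.0429). It did not pass by DESeq2 (unadjusted p = 0.0977), with no filter on low counts or with any other single fish left out. For 2 BL/s it was -0.19 (SE 0.15, edgeR unadjusted p = 0.243).

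The beta-1 subunit (Sa_46043.4.1, isoform X1), which brings alpha-1S to the T-tubule and couples it to the release channel, had 199, 173 and 174 normalized counts in the controls. It had 153, 183 and 73.6 in fish at 1 BL/s and 143, 182 and 127 in fish at 2 BL/s. The groups overlapped, and fish 3 at 1 BL/s was the lowest of all fish. The log2 fold changes were -0.41 (SE 0.33) at 1 BL/s, -0.12 without fish 3, and -0.27 (SE 0.22) at 2 BL/s. Of the other 56 L-type gene models, 7 had a count, with means under 1 normalized count. The 15 gene models of alpha-1C, the cardiac pore subunit, had none. The highest of these 7 by mean normalized count were the beta-4 model Sa_37990.1.1 with 7 fragments over the 9 fish and the alpha-1D model Sa_15333.1.1 with 4.

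Junctophilin-2 (Sa_36578.1.1), a tether between T-tubule and sarcoplasmic reticulum, showed the same order of groups as ryanodine receptor 3. Its normalized counts were 3647, 3588 and 3226 in control fish, 2819, 2748 and 1148 in fish at 1 BL/s, and 2609, 3252 and 2244 in fish at 2 BL/s. All fish at 1 BL/s were below the controls, and at 2 BL/s 1 fish overlapped with them. The log2 fold change was -0.64 at 1 BL/s (SE 0.32, 95% interval -1.36 to 0.08, edgeR unadjusted p = 0.0743) and -0.33 without fish 3 (edgeR unadjusted p = 0.0599). It passed without fish 1 at 1 BL/s (edgeR -0.85, unadjusted p = 0.0456) and with no filter on low counts (edgeR -0.66, unadjusted p = 0.00739). It did not pass by DESeq2 (unadjusted p = 0.0844). For 2 BL/s it was -0.36 (SE 0.17, edgeR unadjusted p = 0.0621) and passed without fish 2 at 2 BL/s (edgeR -0.52, unadjusted p = 0.0137). By DESeq2 it did not pass at 2 BL/s either (unadjusted p = 0.121).

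Junctophilin-1 (Sa_19028.1.1), the partner isoform of skeletal muscle, had 259, 230 and 165 normalized counts in control fish, 239, 232 and 151 in fish at 1 BL/s, and 232, 258 and 177 in fish at 2 BL/s. The groups overlapped almost completely, with log2 fold changes of -0.07 (SE 0.28) and 0.03 (SE 0.24) vs. controls. Junctophilin-3 (Sa_36312.1.1), a neuronal isoform in mammals, ranged from 43.9 to 141 normalized counts, and its highest fish was fish 3 at 1 BL/s. Its log2 fold changes were 0.24 (SE 0.40) and -0.01 (SE 0.39). The value at 1 BL/s was -0.16 without fish 3, and the value at 2 BL/s was 0.26 without fish 2.

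Triadin was counted in 3 of 5 gene models on a shared stem, mostly Sa_13959.2.4 (isoform X1) and Sa_13959.2.3 (isoform X4). The summed counts were 9, 3 and 3 in control fish, 7, 3 and 22 in fish at 1 BL/s, and 3, 32 and 17 in fish at 2 BL/s. The level was above all controls in fish 3 at 1 BL/s and in fish 2 and 3 at 2 BL/s, and the groups overlapped. The ratio to controls was 2.22 (95% counting interval 1.17 to 4.41) at 1 BL/s and 3.35 (1.86 to 6.41) at 2 BL/s. The first ratio was 0.945 (0.380 to 2.25) when fish 3 at 1 BL/s was left out, and the second was 1.90 (0.923 to 3.98) when fish 2 of its group was. In the main fits isoform X4 was tested only between 2 and 1 BL/s, with a log2 fold change of 0.54 (SE 1.04), and across the 3 groups (edgeR unadjusted p = 0.203). Its counts were 12 in fish 3 at 1 BL/s, 14 and 10 in fish 2 and 3 at 2 BL/s, and 1 to 3 elsewhere. Only the fish with 10 or more took it past the filter. For 2 BL/s vs. controls it passed by edgeR with no filter (2.18, unadjusted p = 0.0125), without control fish 1 (2.88, unadjusted p = 0.0448) and without fish 1 at 2 BL/s (2.72, unadjusted p = 0.00523). It did not pass in the fit of all 9 fish. Except in the fit with no filter, isoform X4 was tested only through the fish with 10 or more. These passes are therefore not separate support. An exact two-sided permutation test of isoform X4 at 2 BL/s vs. controls gave p = 0.3. The fold change between 2 and 1 BL/s was 2.41 on the log2 scale when fish 3 at 1 BL/s was left out, -0.07 when fish 1 of that group was, and -0.12 when fish 2 of the faster group was.

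**Figure D3:**
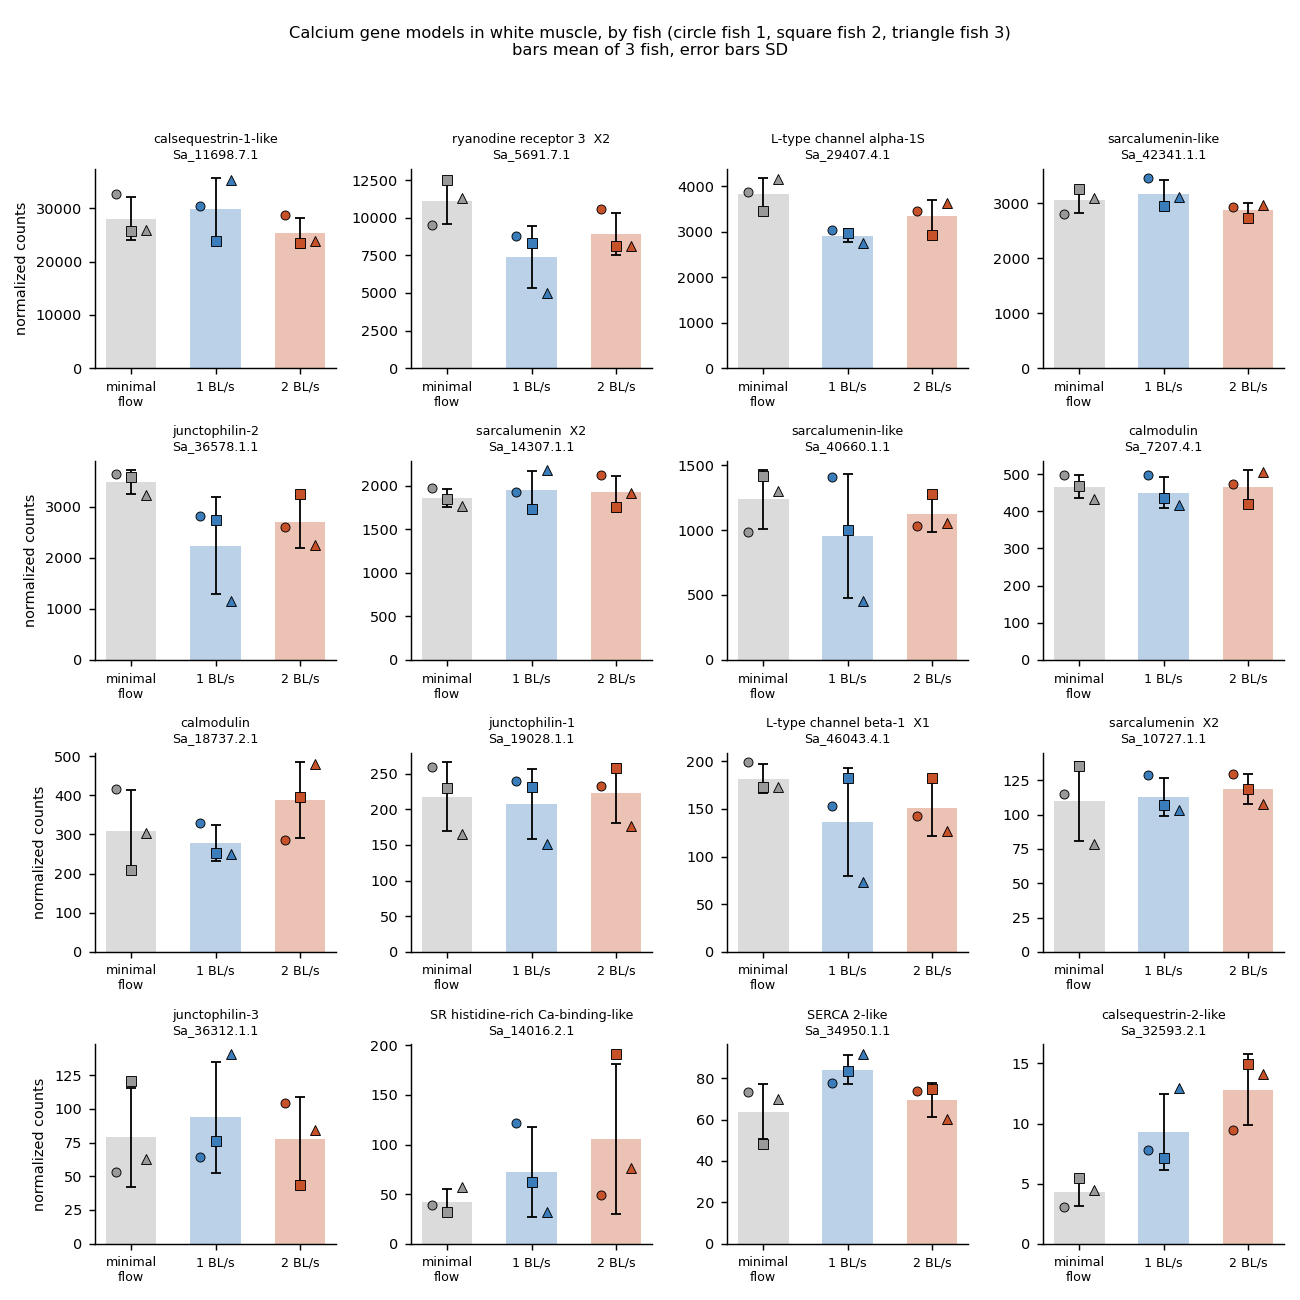
Normalized counts (y axis, from 0) of 16 member gene models in the 3 groups (x axis); bars are means of 3 fish, error bars SD, and symbols single fish. Ryanodine receptor 3, alpha-1S and junctophilin-2 lay below all controls in the fish at 1 BL/s, as 4.92% of all gene models tested did. SERCA2-like lay above all controls there, as 6.05% did. Calsequestrin-2-like, shown despite its low counts, lay above all controls in all 6 swimming fish, as 0.99% of gene models did. Its order is not independent of the filter on low counts.

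Calsequestrin-1-like (Sa_11698.7.1), the calcium store protein of fast fibres, was the member with the most fragments and showed no difference beyond the spread of the fish. Its normalized counts were 32690, 25715 and 25889 in control fish, 30527, 23839 and 35283 in fish at 1 BL/s, and 28726, 23588 and 23947 in fish at 2 BL/s. The groups overlapped, and the highest fish was fish 3 at 1 BL/s, the same fish that was lowest for ryanodine receptor 3 and junctophilin-2. The log2 fold changes were 0.08 (SE 0.20, 95% interval -0.38 to 0.54) at 1 BL/s and -0.14 (SE 0.15, 95% interval -0.47 to 0.20) at 2 BL/s. The calsequestrin-1 models Sa_9774.3.3 and Sa_9774.3.1, which share a stem, had a mean of 0.621 and 0.542 normalized counts.

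Calsequestrin-2-like (Sa_32593.2.1), the isoform of heart and slow fibres in mammals, had low counts that were higher in every swimming fish than in every control. The raw counts were 3, 5 and 5 in control fish, 9, 7 and 10 in fish at 1 BL/s, and 10, 15 and 15 in fish at 2 BL/s. The corresponding normalized counts were 3.05, 5.50 and 4.43, then 7.83, 7.12 and 12.9, then 9.44, 14.9 and 14.1. It was the only 1 of 19 members with all 6 swimming fish above all 3 controls, and 0.99% of all 4241 gene models tested had this order. The edgeR test across the 3 groups gave an unadjusted p = 0.0300 (adjusted p = 0.952), and DESeq2 gave an unadjusted p = 0.0499. No control held more than 5 fragments, so the gene model passed the filter of these tests only through the swimming fish. The order of the fish and these p-values are therefore not independent of the filter. The calsequestrin-2-like models Sa_22876.2.1 and Sa_22876.2.2 share a stem and had no count, which cannot be read as a lack of expression.

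In the separate comparisons with controls, calsequestrin-2-like was below the filter on low counts. The summed counts gave a ratio to controls of 2.08 (95% counting interval 1.03 to 4.41) at 1 BL/s and of 2.97 (1.56 to 6.06) at 2 BL/s, and of 1.43 (0.852 to 2.44) between the swimming groups. Without fish 3 at 1 BL/s the first ratio was 1.74 (0.787 to 3.94), and without fish 2 at 2 BL/s the second was 2.74 (1.35 to 5.83). The gene model was tested for 2 BL/s vs. controls in 6 alternative edgeR fits and passed in all 6, with log2 fold changes from 1.35 to 1.73. Except in the fit with no filter, it was tested only through the counts of swimming fish, since no control held more than 5 fragments. It was not tested without fish 2 or without fish 3 at 2 BL/s, so these passes are not separate support. In the fit of all 9 fish its log2 fold change was 1.54 (edgeR unadjusted p = 0.00959, adjusted p = 1.000), and with no filter on low counts it was 1.53 (edgeR unadjusted p = 0.0176). For 1 BL/s vs. controls it was tested in 2 fits and passed in 0, at 1.06 (edgeR unadjusted p = 0.0633) with all 9 fish and 1.03 (edgeR unadjusted p = 0.161) with no filter. The exact two-sided permutation p of each comparison with controls was 0.1, the smallest that 20 arrangements allow. Without fish 2 at 2 BL/s the p across the groups was 0.0910 by edgeR, without fish 3 at 2 BL/s 0.0918, without control fish 1 0.105, without control fish 3 0.0869, and with no filter on low counts 0.0633.

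Sarcalumenin, a calcium-binding glycoprotein of the lumen, was counted in 4 gene models, all alone on their stem. The sarcalumenin-like model Sa_42341.1.1 had 2811, 3267 and 3094 normalized counts in control fish, 3457, 2961 and 3111 in fish at 1 BL/s, and 2939, 2741 and 2966 in fish at 2 BL/s. Its log2 fold changes were 0.05 (SE 0.18) and -0.08 (SE 0.14), and the isoform X2 models Sa_14307.1.1 and Sa_10727.1.1 also had log2 fold changes between 0.04 and 0.12 vs. controls. These 3 gene models overlapped between all groups. The sarcalumenin-like model Sa_40660.1.1 had 985, 1418 and 1304 normalized counts in control fish, 1408, 1001 and 455 in fish at 1 BL/s, and 1034, 1275 and 1053 in fish at 2 BL/s. Fish 3 at 1 BL/s was the lowest of the 9 fish for this gene model, and the log2 fold change at 1 BL/s was -0.37 (SE 0.37) with it and -0.04 without it.

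The histidine-rich calcium-binding protein (Sa_14016.2.1), which binds calcium and triadin in the lumen in mammals, was higher at 2 BL/s than in the controls. Its normalized counts were 38.6, 31.9 and 56.7 in control fish, 122, 62.0 and 32.3 in fish at 1 BL/s, and 49.1, 191 and 76.1 in fish at 2 BL/s. The groups overlapped in both comparisons, and fish 2 at 2 BL/s was the highest of all. The log2 fold change at 2 BL/s was 1.31 (SE 0.47, 95% interval 0.25 to 2.37, edgeR unadjusted p = 0.0206, adjusted p = 0.996). It fell to 0.55 without fish 2 at 2 BL/s (edgeR unadjusted p = 0.152), and it did not pass without control fish 1 (edgeR 1.24, unadjusted p = 0.0602) or control fish 2 (edgeR 1.13, unadjusted p = 0.0588). With no filter on low counts its adjusted p was 0.00897 by edgeR. The same fit gave the SERCA1 model Sa_28695.2.1, counted almost only in fish 2 at 2 BL/s, an adjusted p of 2.55e-07 by edgeR. For the histidine-rich protein at 2 BL/s vs. controls, an exact two-sided permutation test gave p = 0.2. In the same comparison 9 of 30 markers of fast white muscle and 11 of 37 short ribosomal protein transcripts were lower by edgeR, against a background of 2.71%, and their part in this result was not tested. At 1 BL/s the log2 fold change was 0.77 (SE 0.46, edgeR unadjusted p = 0.130) and without fish 3 at 1 BL/s it was 1.11 (edgeR unadjusted p = 0.0148), while without fish 1 it was 0.14 (edgeR unadjusted p = 0.738). The gene model of the junctional sarcoplasmic reticulum protein 1 had no count.

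SERCA pumps held 779 fragments in 4 of 16 gene models. The SERCA2-like model Sa_34950.1.1, named for the pump of slow and cardiac muscle in mammals, had 73.2, 48.4 and 70.0 normalized counts in control fish, 77.5, 83.4 and 91.7 in fish at 1 BL/s, and 73.6, 74.7 and 60.1 in fish at 2 BL/s. All fish at 1 BL/s lay above the controls and above the fish at 2 BL/s. The log2 fold changes were 0.39 (SE 0.26, edgeR unadjusted p = 0.169) at 1 BL/s vs. controls and -0.26 (SE 0.23, edgeR unadjusted p = 0.297) between 2 and 1 BL/s. The models Sa_34951.1.2 (SERCA2-like) and Sa_34314.8.3 (SERCA2) had a mean of 3.93 and 0.687 normalized counts.

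SERCA1, the pump of fast fibres in mammals, was counted in Sa_28695.2.1 alone. It had 76 fragments in fish 2 at 2 BL/s and 0 to 2 in each of the other 8 fish. The remaining 2 SERCA1 models and all 4 SERCA3 models had no count and shared stems. Of the 16 SERCA models, 12 shared a stem, and they held 42 fragments. The zeros and low counts of the SERCA families therefore cannot be read as a lack of expression either. No gene model was described as phospholamban or sarcolipin, the small inhibitors of the pump.

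Calmodulin was counted in 3 of 11 gene models. Sa_7207.4.1 had 497, 468 and 434 normalized counts in control fish, 497, 437 and 416 in fish at 1 BL/s, and 474, 420 and 506 in fish at 2 BL/s, with log2 fold changes of -0.06 (SE 0.20) and 0.01 (SE 0.18). Sa_18737.2.1 had 416, 208 and 304 in control fish, 330, 252 and 251 in fish at 1 BL/s, and 287, 395 and 481 in fish at 2 BL/s. The groups overlapped for both gene models. The log2 fold change of Sa_18737.2.1 between 2 and 1 BL/s was 0.49 (SE 0.25, edgeR unadjusted p = 0.0820), and it passed without fish 1 at 2 BL/s (edgeR 0.66, unadjusted p = 0.0303). The model Sa_9717.3.1 (calmodulin 4) had 1 fragment.

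Among the 54 members that only begin with the word calmodulin, 9 had a count. The calmodulin-binding transcription activator 2 models Sa_15694.1.1 and Sa_15695.1.1 were tested, and their log2 fold changes vs. controls ranged from -0.51 to 0.17 with SE from 0.39 to 0.49. The models Sa_54968.1.1 and Sa_15695.2.1 of the same protein had means of 6.39 and 2.01 normalized counts. The 20 gene models of calmodulin-binding transcription activator 1 had no count.

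In fish 3 at 1 BL/s, 8 of the 19 members tested had their lowest value of the 9 fish and 5 had their highest. The log2 ratio of this fish to the mean of the other 8 fish was -0.95 for ryanodine receptor 3, -1.39 for junctophilin-2, -1.38 for the sarcalumenin-like model Sa_40660.1.1 and -1.18 for beta-1, and 0.39 for calsequestrin-1-like. In the same fish a list of very long transcripts outside the members (titin, nebulin, obscurin and the like) was at -0.66, the lowest of the 9 fish, and cytosolic ribosomal proteins, a list of short transcripts, at 0.71, the highest. Of the blood markers 3 of 11 gene models had counts, and their summed level was 938 normalized counts in this fish, against 117 to 358 in the others. The part of transcript length and blood in these results was not tested. As given above, the log2 fold change of ryanodine receptor 3 without this fish was -0.38 and that of alpha-1S was -0.35. That of junctophilin-2 was -0.33, that of beta-1 was -0.12 and that of Sa_40660.1.1 was -0.04.

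**Figure D4:**
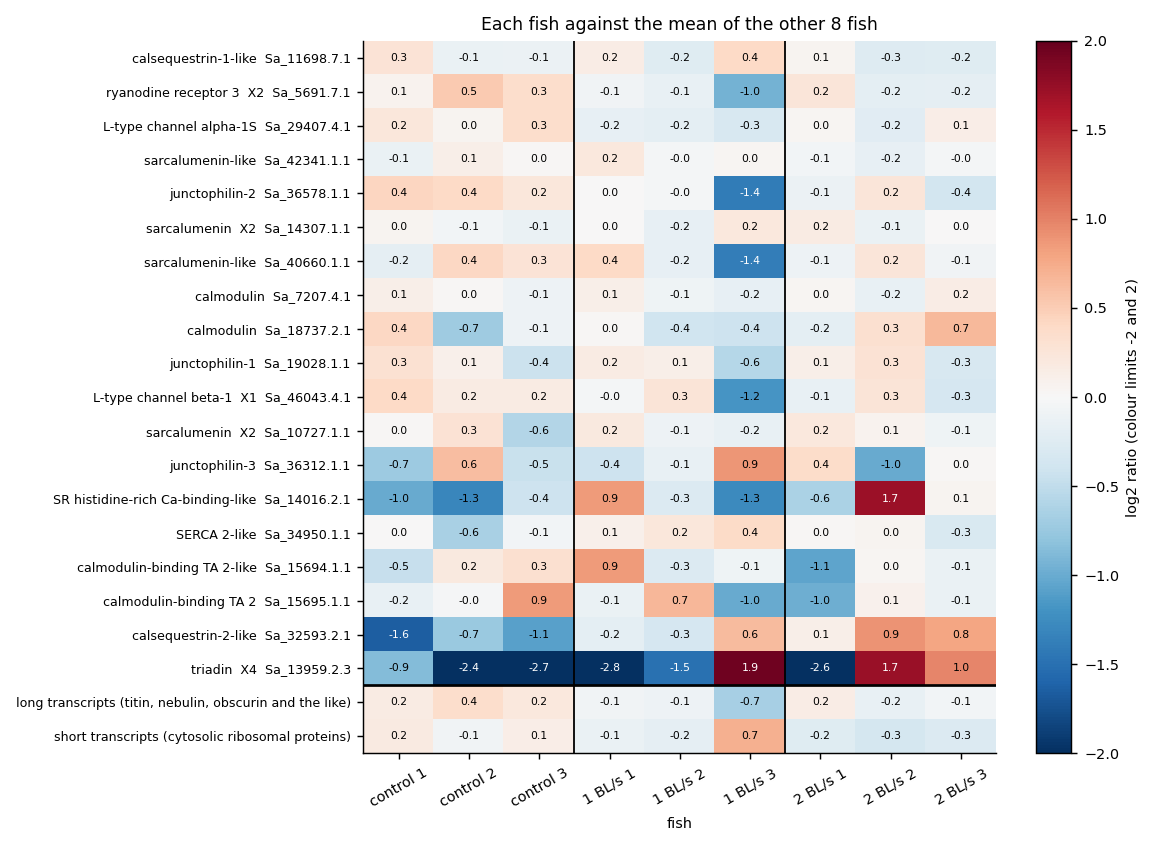
Log2 ratio of each fish (x axis) to the mean of the other 8 fish, for the 19 members tested (y axis) and, below the line, for summed lists of long and short transcripts; numbers in the cells are the ratios and the colour scale ends at -2 and 2. Fish 3 at 1 BL/s was low for ryanodine receptor 3 (-0.95), junctophilin-2 (-1.39) and the long transcripts (-0.66), and high for the short transcripts (0.71).

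In fish 2 at 2 BL/s, the counts of SERCA1, the histidine-rich protein and triadin were the highest of the 9 fish. Some markers of slow muscle were also highest in this fish, while the slow troponins Sa_13444.6.1 and Sa_9400.4.1 had 0 fragments in it. The 6 slow troponin models with counts summed to 519 fragments in this fish and to 5 to 44 in each of the others, led by Sa_2545.1.1 with 364 in this fish and 3 to 36 in the others. The slow-type myosin-binding model Sa_7612.4.1 had 29 fragments in this fish and 0 to 3 in the others. Over the whole list of slow and red muscle markers, 12 of 28 gene models had counts, and their summed level ranged from 658 to 1251 normalized counts among the controls, from 984 to 1187 at 1 BL/s and from 509 to 1284 at 2 BL/s, where this fish was the highest. A list of heart markers had counts in 12 of 39 gene models and summed to 383 normalized counts in this fish, against 33 to 80 in the other 8. Of these 12, 2 are troponins that the slow list also holds, with 364 fragments in this fish, and the other 10 had 20 fragments here and 22 to 66 in the other fish. Calsequestrin-2-like, with 15 fragments, was as high in fish 3 at 2 BL/s, where the slow troponins were at 5. The part of slow or cardiac fibres in these values was not tested, and without this fish the log2 fold change of the histidine-rich protein at 2 BL/s was 0.55.

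**Figure D5:**
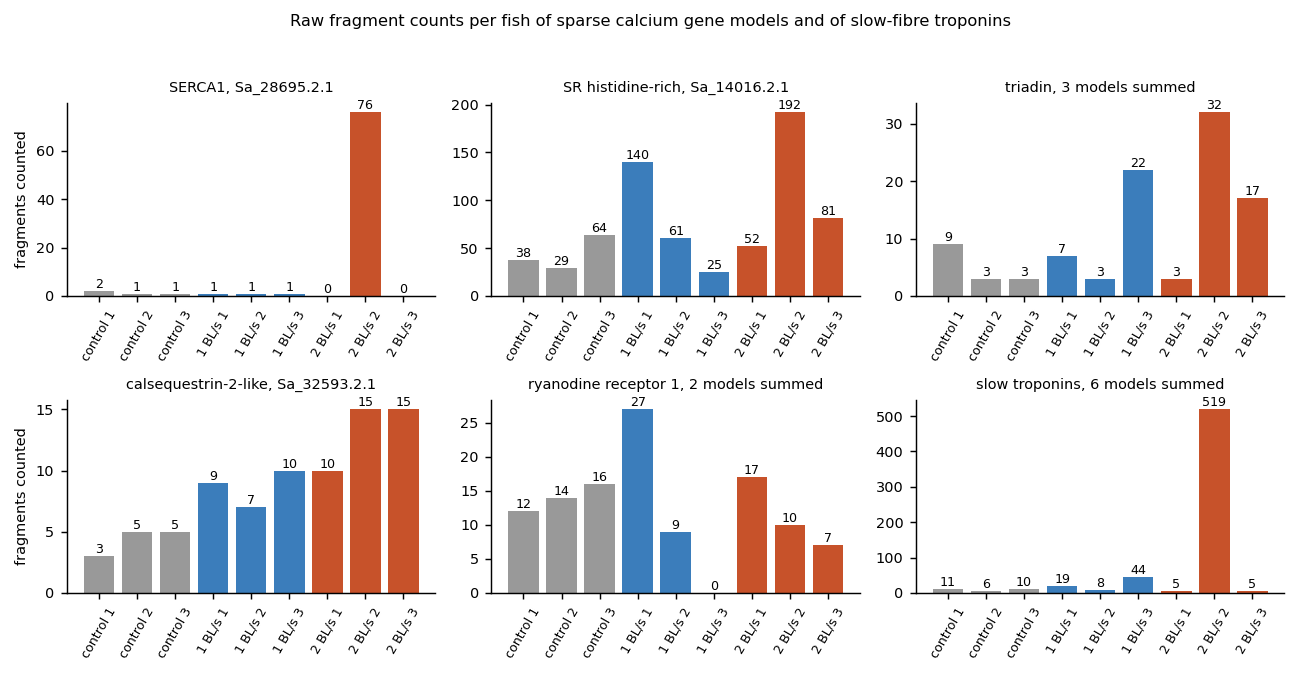
Raw fragments counted (y axis, from 0) per fish (x axis) for 5 sparse members or member families and for the summed slow troponins. Fish 2 at 2 BL/s was the highest for SERCA1 (76), the histidine-rich protein (192), triadin (32) and slow troponins (519), while calsequestrin-2-like was at 15 in that fish and in fish 3 at 2 BL/s.

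Groups did not overlap for 4 of 17 members at 1 BL/s vs. controls, which were ryanodine receptor 3, alpha-1S and junctophilin-2 on the lower side and SERCA2-like on the higher side, while 11.0% of all gene models tested did not overlap in that comparison (4.92% lower, 6.05% higher). For 2 BL/s vs. controls it was 0 of 17 members, by the order of the fish alone, against 9.75%. Between 2 and 1 BL/s it was 1 of 19, SERCA2-like, against 10.9%.

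Other genes of the calcium cycle were followed as a list of 490 gene models, of which 125 had a count. The list covered FKBP12, junctin, STAC3, other calcium channel subunits, trimeric intracellular cation channels, store-operated entry, luminal calcium proteins, calmodulin effectors, plasma membrane transport, mitochondrial uptake, T-tubule proteins, small calcium sensors and homer. At 1 BL/s vs. controls 1 of 39 tested was higher and 0 lower by edgeR, against a background of 1.97% higher and 2.05% lower. For 2 BL/s 1 of 41 was higher and 1 lower (background 1.75% and 2.71%), and between 2 and 1 BL/s 0 of 40 were higher and 2 lower (1.97% and 2.27%). Each of these counts was at most 2 gene models. None had an adjusted p below 0.05 by edgeR. The medians of the log2 fold changes were -0.25, -0.13 and 0.20, and those of all gene models are given above.

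At 1 BL/s, the regulatory subunit of the mitochondrial calcium uniporter (Sa_18097.1.1) had 29.6, 22.4 and 34.9 normalized counts against 7.12, 14.3 and 17.7 in the controls. All fish at 1 BL/s lay above the controls, and the log2 fold change was 1.12 (SE 0.41, edgeR unadjusted p = 0.0227). The raw counts were 7, 13 and 20 in control fish, so the gene model passed the filter on low counts only with the fish at 1 BL/s. Its order of fish and p-value are not independent of the filter. At 2 BL/s, calcineurin B homologous protein 1 (Sa_13400.8.1), a partner of sodium-proton exchangers, had 23.6, 16.9 and 19.7 normalized counts against 13.2, 6.60 and 4.43. All fish at 2 BL/s lay above the controls, and the log2 fold change was 1.32 (SE 0.46, edgeR unadjusted p = 0.0170). The raw counts were 13, 6 and 5 in control fish and 25, 17 and 21 at 2 BL/s. This gene model therefore passed the filter on low counts only through the fish at 2 BL/s. The order of the fish and the p-value are not independent of that filter. The alpha-2 delta-1-like model Sa_23073.2.1, an auxiliary subunit of voltage-gated calcium channels, had 1086, 884 and 1264 against 1550, 1452 and 1527. All fish at 2 BL/s lay below the controls, and the log2 fold change was -0.48 (SE 0.18, edgeR unadjusted p = 0.0221).

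Between 2 and 1 BL/s, S100-A14 (Sa_44180.1.1), of the S100 family of EF-hand proteins, was lower, with a log2 fold change of -1.10 (SE 0.34, edgeR unadjusted p = 0.0103). Bridging integrator 3 (Sa_19578.3.1), a membrane-shaping BAR domain protein, was also lower, with a log2 fold change of -0.76 (SE 0.29, edgeR unadjusted p = 0.0266). Both lay below all fish at 1 BL/s in all fish at 2 BL/s. The gene models of the list with the most counts did not pass in any comparison. They were the trimeric intracellular cation channel type A (Sa_37646.2.1), which carries the counter-current of calcium release, with log2 fold changes of -0.04 and -0.30 vs. controls, and the gamma (Sa_21496.6.1) and regulatory (Sa_10526.3.1) subunits of phosphorylase kinase, the calmodulin-containing enzyme that links calcium to glycogen breakdown. The regulatory subunit had 2454, 2037 and 729 normalized counts at 1 BL/s against 2206, 3399 and 2913 in the controls, with fish 3 at 1 BL/s again the lowest.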

How the data were processed

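According to the study's methods and the processing notes of the submitters, the authors aligned the reads of stranded libraries with TopHat2 2.0.13, removed secondary alignments with SAMtools 1.2, and deposited raw fragment counts per gene model from HTSeq 0.6.1p1. Normalized signal values that the authors deposited (group means after DESeq scaling), and their fold changes and p-values, were not used. The reference was the seabream assembly that the study links at NCBI without naming its build. Not given in the sources used here were the strand setting and the treatment of multiple matches, so near-identical, overlapping or antisense gene models are uncertain. Counts of 9 fish were joined by identifier over 3 tables (0 differing values), and 2 columns with no sample label were left out. The 10 most abundant gene models held 59.2% of counts. Every pair of fish differed by more than sampling noise (chi-square divided by its degrees of freedom at least 9.1).

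Counts were tested with edgeR 4.0.16 (TMM, filterByExpr, quasi-likelihood) in R 4.3.3 on the 6 fish of each comparison and on all 9 fish. The SE is the log2 fold change divided by the square root of F. Alternatives used DESeq2 1.42.0 and other filters, scalings and fish. Exact permutation tests compared differences of mean normalized counts over all arrangements of the fish, computed directly in Python 3.11.15. Exact binomial counting intervals came from scipy 1.17.1. Tables and plots used pandas 2.3.3, numpy 2.4.6 and matplotlib 3.10.9. The fit was tested on simulated data. None of the identifiers matched the RefSeq gene names, so no coordinates or sequences are given. The members and lists were chosen with earlier results of these data known. Named were up to 4 members with the highest means in each role, every member with an unadjusted p below 0.05, every counted calsequestrin, members with all swimming fish on 1 side of the controls at a mean of 10 or more, and, of the wider list, those past the threshold and the 3 with the highest means. The slow troponin and myosin-binding models, and others given where a result turns on them, were named after their values were seen.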

Additional observations from a re-analysis of the deposited data

How the results depend on the processing

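The counts of members past an unadjusted p of 0.05 were 1, 1, 0 and 1 (1 BL/s and 2 BL/s against controls, 2 against 1 BL/s, any of the 3 groups). With no filter on low counts they were 3 of 40, 4 of 42, 1 of 41 and 5 of 44 members tested, beside 527 of 13211, 565 of 13487, 633 of 13407 and 649 of 14465 gene models. The members included SERCA1 through fish 2 at 2 BL/s (adjusted p = 2.55e-07 by edgeR at 2 BL/s vs. controls). With at least 50 counts in at least 3 fish the count over the 3 groups was 0, beside 62 of 1679 gene models. Calsequestrin-2-like was not tested under that filter. In 1 fit of all 9 fish the comparisons with controls gave 2 and 2, beside 216 and 146 of 4241 gene models. With the 10 most abundant gene models left out of the library sizes 1 BL/s vs. controls gave 2, and by DESeq2 it gave 0. Beside these were 157 and 114 of 3902 gene models. At an adjusted p of 0.05 the counts that were 1 became 0. Leaving out 1 fish at a time, they ranged from 0 to 3, from 1 to 4, from 0 to 1 and from 0 to 3. Of all gene models, 125 of 4075 to 229 of 4026 then passed at 1 BL/s vs. controls. At 2 BL/s it was 117 of 4292 to 273 of 4222. Between 2 and 1 BL/s it was 120 of 4187 to 299 of 4249. Across the 3 groups it was 137 of 4532 to 249 of 4501. Without both fish 3 at 1 BL/s and fish 2 at 2 BL/s, 2 of 18 members passed over the 3 groups (the histidine-rich protein and junctophilin-2). Beside them passed 140 of 4492 gene models, and this alternative was chosen after seeing the data.

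The median log2 fold changes also moved. At 2 BL/s vs. controls the median was 0.0309 with the filter of 50 counts, -0.0165 in the fit of all 9 fish and -0.0121 without the other proteins with calmodulin in their names. Between 2 and 1 BL/s it was 0.23 with no filter, and -0.12 without both fish named above. With single fish left out, the medians ranged from -0.199 to 0.0085 at 1 BL/s, from -0.10 to -0.03 at 2 BL/s and from -0.0019 to 0.19 between the swimming groups. The causes of these changes were not tested beyond what each alternative leaves out.

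A fit with the fish number of the labels as a replicate block gave 2, 2, 0 and 2 members. Beside them were 161 of 3902, 183 of 3947, 178 of 3963 and 179 of 4241 gene models. The block added junctophilin-2 wherever 2 members passed (edgeR unadjusted p = 0.0260 at 1 BL/s, 0.0289 at 2 BL/s and 0.0409 across the 3 groups). Deviations of same-numbered fish correlated from -0.04 to 0.18, and those of differently numbered fish from -0.20 to 0.13. Fish did not all correlate best with their own number, and the labels do not say that the numbers pair fish. The main fit therefore used no block, and a shared order of sampling was not tested.

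Of 996 further values of single gene models, 901 kept their side of the threshold and their direction, 24 passed where they had not, 12 no longer passed and 59 changed sign without passing in either fit. With 3 fish per group and 1 tank per group, SE of members ranged from 0.14 to 1.04 on the log2 scale.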
